A study of Mus musculus with 15 samples.

Results

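The RNA of 10 genes of the NFAT and NF-kappaB pathways was followed across 15 libraries of cultured mouse T helper 2 (Th2) cells. The genes were taken by name, and all 10 had a row among the 56748 genes of the count and TPM tables. They comprise the transcription factors Nfatc1, Nfatc2 and Nfatc3, the calcineurin regulator Rcan1, the NF-kappaB subunits Rel, Rela, Relb, Nfkb1 and Nfkb2, and the inhibitor Nfkbia, so 2 of the 10 encode regulators and not DNA-binding factors. All 10 passed the filter on low counts, among 15619 genes tested.

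The study asked how loss of Asb2, whose protein selects the substrates of a ubiquitin ligase complex, changes RNA in Th2 cells with and without renewed stimulation of the T cell receptor. Control cells came from female Asb2fl/fl mice and conditional knockout (cKO) cells from female VEC-Cre;Asb2fl/fl mice, in which the VE-cadherin promoter drives Cre. Both genotypes therefore carry floxed Asb2 alleles. The labels give the animals' sex but not their age. Splenic naive CD4+ cells were grown for 3 days on plate-bound anti-CD3ε at 5 µg/ml with interleukin 2 (10 ng/ml), interleukin 4 (40 ng/ml), anti-CD28 (1 µg/ml) and anti-IFNγ (10 µg/ml), and expanded for 3 days without antibodies in interleukins 2 and 4 (20 ng/ml each). For stimulation, coated anti-CD3ε (3 µg/ml) and soluble anti-CD28 (2 µg/ml) were added at day 5 for 24 h. Every cell had thus met anti-CD3ε once before, and the stimulated groups met it again. Without stimulation there were 3 control and 3 cKO libraries, and with it 5 control and 4 cKO libraries.

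In resting T cells, NFAT proteins are phosphorylated and held in the cytoplasm. Calcium entry after receptor engagement activates the phosphatase calcineurin, which dephosphorylates NFAT and lets it enter the nucleus, where it often binds together with AP-1. NF-kappaB dimers are held by IkB proteins such as the product of Nfkbia. Signals from the receptor and CD28 lead to the IKK kinases, which mark IkB for destruction. Nfkb1 and Nfkb2 encode precursors that are processed to p50 and p52, and several genes of the system, Nfkbia among them, are textbook targets of NF-kappaB itself. Both pathways are controlled largely at the level of the proteins, which RNA does not measure.

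Promoter sequences are shown for 4 members that carried matches to the binding motifs of these factors, 3 of them the members with the largest rises described further on. Nfatc2, which fell with stimulation, also carried a match and is not shown. RefSeq promoter windows (250 bases before to 50 after each start site, GRCm38.p6) matched 7 of the 10 members, with 12 windows in all. Windows on 1 chromosome were left out beforehand for the members, but the count over all windows was not restricted in this way. Nfatc1, Relb and Nfkb1 are named only. Each sequence is the 250 bases before the start site, 5′ to 3′ on the gene's strand. Capitals mark the kappaB consensus in the first 3 sequences. In the Rcan1 sequence they mark the NFAT core TGGAAA, here read on the opposite strand, and the AP-1 motif TGANTCA.
Nfkbia (chr12:55492648-55492897, minus strand): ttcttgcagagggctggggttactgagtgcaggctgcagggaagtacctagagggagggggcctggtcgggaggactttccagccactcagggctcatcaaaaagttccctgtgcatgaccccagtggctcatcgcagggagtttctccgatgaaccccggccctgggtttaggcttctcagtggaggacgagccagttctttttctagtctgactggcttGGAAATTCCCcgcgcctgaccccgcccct
Rel (chr11:23770970-23771219, minus strand): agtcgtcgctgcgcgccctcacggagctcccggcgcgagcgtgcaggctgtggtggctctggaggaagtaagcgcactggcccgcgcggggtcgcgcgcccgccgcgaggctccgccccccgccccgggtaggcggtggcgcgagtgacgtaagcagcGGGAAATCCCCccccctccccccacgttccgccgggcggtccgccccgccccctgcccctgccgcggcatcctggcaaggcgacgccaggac
Nfkb2, start 1 (chr19:46304487-46304736, plus strand): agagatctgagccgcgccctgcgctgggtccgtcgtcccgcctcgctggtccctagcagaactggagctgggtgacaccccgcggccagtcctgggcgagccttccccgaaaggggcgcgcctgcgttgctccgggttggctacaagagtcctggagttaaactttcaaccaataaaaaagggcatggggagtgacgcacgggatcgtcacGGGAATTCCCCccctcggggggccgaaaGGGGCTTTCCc
Rcan1, start 2 (chr16:92400079-92400328, minus strand): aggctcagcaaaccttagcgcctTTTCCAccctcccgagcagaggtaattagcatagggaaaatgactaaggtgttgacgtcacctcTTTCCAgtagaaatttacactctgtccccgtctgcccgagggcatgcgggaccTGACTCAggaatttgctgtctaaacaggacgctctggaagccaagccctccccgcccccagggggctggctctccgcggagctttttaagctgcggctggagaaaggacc

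Both strands were searched. The kappaB consensus was found in 5 of the 12 windows, belonging to 3 of the 7 matched members, and in 8.46% of all 32851 windows of 300 bases. In Nfkbia 1 match spans bases -29 to -20 from the start site. Of its 2 NFAT cores, 1 at -30 to -25 overlaps that match and the other lies at -174 to -169. In Rel 2 overlapping matches span -92 to -82. The first Nfkb2 start has 2 overlapping matches at -39 to -29 and another at -11 to -2, and the second has matches at -236 to -227 and at 11 to 20. That last site lies at -225 to -216 from the third Nfkb2 start, since these windows overlap. The windows of Nfatc2, Nfatc3, Rcan1 and Rela held no kappaB match. The NFAT core was found in 5 of the 12 windows, belonging to 4 of the 7 matched members, and in 21.4% of all windows. These members were Nfatc2 (at -200 to -195), Rcan1, Nfkb2 and Nfkbia. At the second Rcan1 start there were 2 cores, at -227 to -222 and -163 to -158, with an AP-1 match at -110 to -104. AP-1 matches occurred in 2 of the 12 windows, belonging to 2 members, and in 7.81% of all windows. A match to a motif is a description of the sequence and not a measured binding site.

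**Figure D1:**
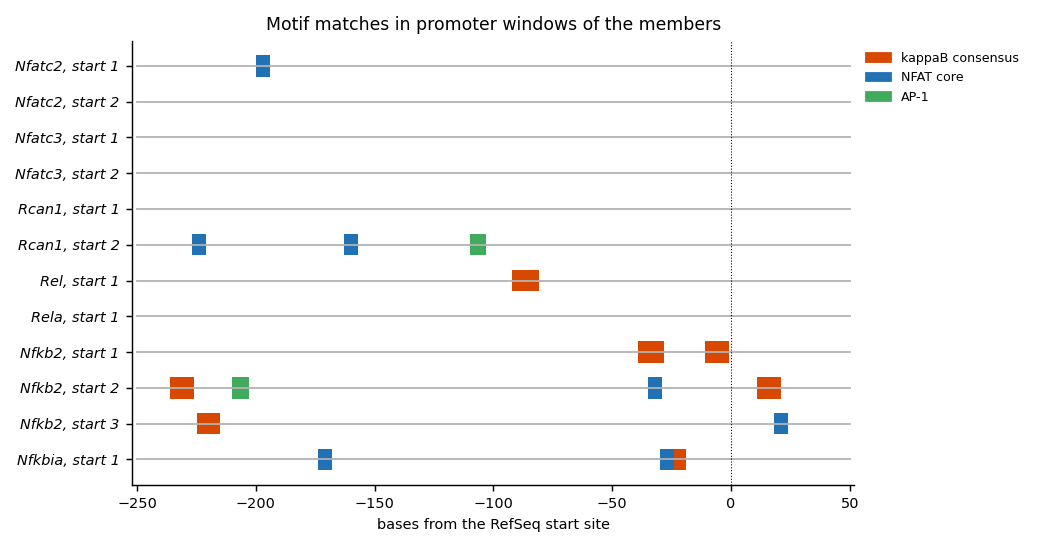
Motif matches in the 12 RefSeq promoter windows of 7 genes. The x axis gives bases from the start site and each line is 1 window. Coloured boxes are matches on either strand to the kappaB consensus, the NFAT core or AP-1, and 1 of the 2 NFAT cores of Nfkbia overlaps its kappaB match. kappaB matches are seen for Rel, Nfkb2 and Nfkbia.

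Each library held between 17.1 and 24.2 M estimated counts. A second principal component with 4.39% of the variance of log2 CPM placed 2 libraries farthest to one side, replicate 3 of stimulated cKO cells (score 16.7) and replicate 3 of non-stimulated control cells (14.7). Stimulated control replicate 4 (12.8) came next. On the other side, replicate 1 of stimulated control cells and replicate 1 of non-stimulated cKO cells were both at -15.2. Mitochondrially encoded RNA took 9.43% of the counts of stimulated cKO replicate 3 and at most 6.24% elsewhere. Asb2 was at 33.5 ± 2.72 CPM (SD, n = 5) in stimulated control cells and 9.49 ± 0.115 CPM (n = 4) in stimulated cKO cells. Without stimulation it was at 36.7 ± 12.2 CPM (n = 3) in control and 19.2 ± 5.62 CPM (n = 3) in cKO cells. All 9 markers of CD4 T cells and Th2 cells were at a mean of 1 TPM or more in each group. Of the markers of other cells, the B cell genes Cd79a and Ms4a1 stayed under 1 TPM in each library, and Lyz2, S100a8, S100a9, Clec9a and Siglech were at 0 in all of them. Others were present at a mean of 1 TPM or more in at least 1 group. These were Ighm (up to 53.6 TPM) and Cd79b (1.93) of 6 B cell markers, Pecam1 (62.7) of 4 endothelial markers, and Adgre1 (4.44) of 6 macrophage and monocyte markers. Cpa3 (6.02) of 6 granulocyte and mast cell markers, Zbtb46 (1.13) and Itgax (1.08) of 6 dendritic cell markers, and 5 of 6 markers of CD8 T and NK cells also reached it.

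Stimulation changed 9 of the 10 genes in each genotype. The NF-kappaB subunits and Nfkbia all rose, while the NFAT genes and Rcan1 had no common direction. Nfkbia, Nfkb2, Rel, Relb, Rela, Rcan1 and Nfkb1 rose, Nfatc2 and Nfatc3 fell, and Nfatc1 did not pass the test (edgeR's quasi-likelihood test with p adjusted by Benjamini-Hochberg over all genes tested, threshold 0.05). At an unadjusted p under 0.05 the same 9 passed, against 55.9% and 59% of all tested genes. The adjusted rule called 50.6% of all tested genes in control cells (25.4% higher and 25.2% lower) and 53.8% in cKO cells (26.7% higher and 27.1% lower). The median log2 fold change of the 10 genes was 0.61 in control and 0.92 in cKO cells, against 0.00 and -0.01 over all tested genes. In 8 of 10 genes in control cells and 9 of 10 in cKO cells the stimulated and non-stimulated libraries did not overlap, against 47.9% and 54.1% of all tested genes. In such bulk RNA, fewer cells of a type and less RNA per cell cannot be told apart. Whether each library had its own animal is not in the labels, and the p-values cover no more than the spread among these 15 libraries.

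**Figure D2:**
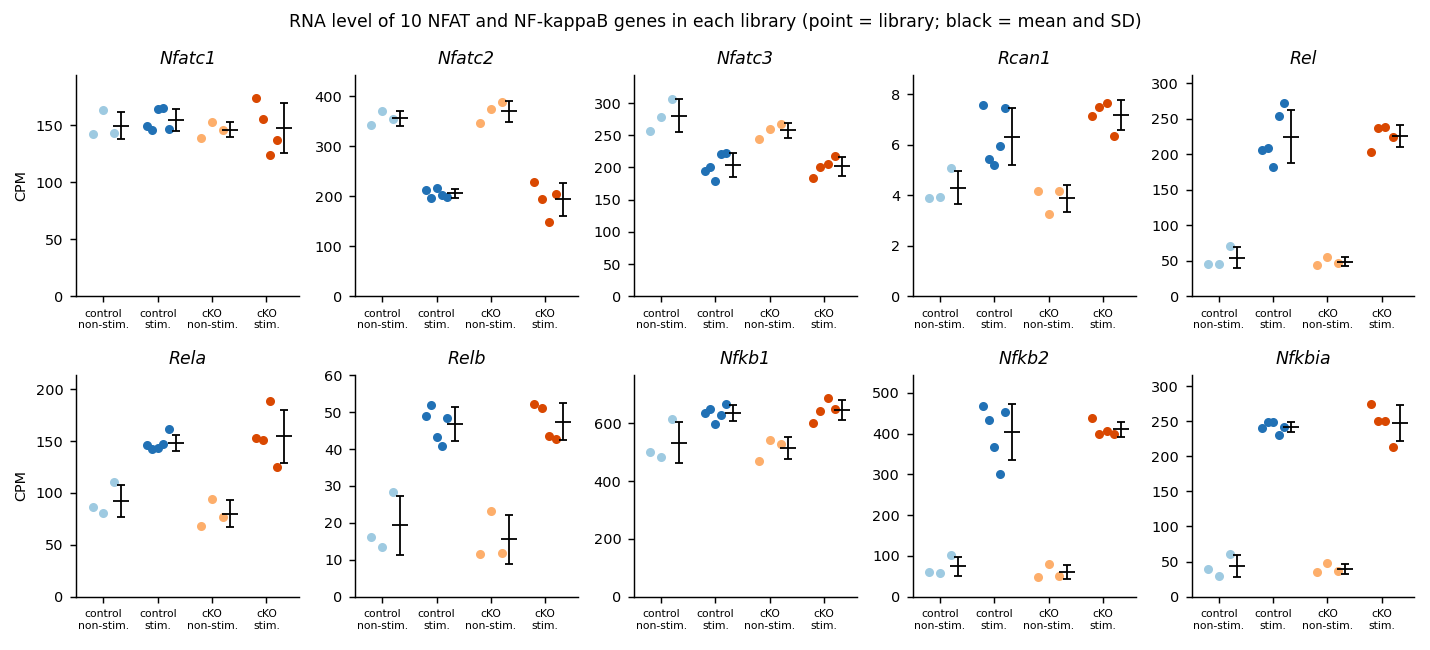
CPM of each gene in each library. Points are libraries, black lines are the group mean and SD, and every y axis starts at 0. Nfkbia, Nfkb2 and Rel separate the stimulated from the non-stimulated libraries most widely, Nfatc2 and Nfatc3 are lower after stimulation, and Nfatc1 stays between 124 and 174 CPM in all 15 libraries.

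Nfkbia (ENSMUSG00000021025) encodes IkB-alpha, the inhibitor that binds NF-kappaB dimers and returns them to the cytoplasm, and carries the kappaB match at -29 to -20 shown above. Its level was 39.9, 29.7 and 61.2 CPM in non-stimulated control libraries and 241, 249, 249, 231 and 243 CPM in stimulated ones. In cKO cells it was 35.3, 48.3 and 35.8 CPM without stimulation and 275, 250, 250 and 213 CPM with it. Every stimulated library lay far above every non-stimulated one, and the stimulated control libraries were close to each other. The log2 fold change was 2.47 ± 0.18 (SE; adjusted p = 2.1e-08 by edgeR) in control and 2.64 ± 0.19 (adjusted p = 1.7e-08) in cKO cells. Only 1.95% of tested genes had a larger log2 fold change, in either genotype.

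Nfkb2 (ENSMUSG00000025225), whose p100 product both restrains NF-kappaB and is the source of p52 in the non-canonical pathway, rose as much. It was at 61.0, 58.6 and 102 CPM in non-stimulated control libraries and at 467, 432, 366, 300.4 and 453 CPM after stimulation. The cKO libraries had 49.0, 80.1 and 51.4 CPM without stimulation and 437, 398, 407 and 399 CPM with it. All stimulated libraries were higher, and among the control ones the spread was wide. The log2 fold change was 2.45 ± 0.22 (adjusted p = 2.7e-07 by edgeR) in control and 2.77 ± 0.23 (adjusted p = 1.2e-07) in cKO cells.

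Rel (ENSMUSG00000020275) encodes c-Rel, the lymphocyte subunit known for driving Il2 and proliferation. Non-stimulated libraries had 45.9, 45.3 and 71.2 CPM in control cells and 44.0, 55.4 and 47.4 CPM in cKO cells. After stimulation the control libraries had 206, 209, 182, 255 and 272 CPM and the cKO libraries 204, 237, 238 and 225 CPM. The groups did not overlap in either genotype, and the log2 fold change was 2.05 ± 0.16 (adjusted p = 2.8e-08 by edgeR) in control and 2.21 ± 0.17 (adjusted p = 2.1e-08) in cKO cells.

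Relb (ENSMUSG00000002983), the partner of p52 in the non-canonical pathway, was the NF-kappaB gene with the widest relative spread without stimulation. It was at 16.1, 13.5 and 28.5 CPM in non-stimulated control libraries and at 11.6, 23.2 and 11.8 CPM in cKO ones, so that 1 library of each genotype stood above the other two. After stimulation it was at 49.0, 51.97, 43.2, 40.9 and 48.5 CPM in control and 52.3, 51.2, 43.7 and 42.6 CPM in cKO cells. These levels lay above all non-stimulated libraries, with log2 changes of 1.27 ± 0.25 (adjusted p = 6.7e-04 by edgeR) and 1.62 ± 0.26 (adjusted p = 1.3e-04).

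Rela (ENSMUSG00000024927) encodes p65, the main activating subunit of the canonical pathway. Its rise was smaller. Non-stimulated control libraries had 86.0, 80.8 and 110.1 CPM and stimulated ones 146, 142, 143, 147 and 162 CPM. In cKO cells the values were 68.5, 94.2 and 77.1 CPM, then 153, 151, 188 and 125 CPM. No library of one condition reached the other, and the log2 fold change was 0.68 ± 0.13 (adjusted p = 3.0e-04 by edgeR) in control and 0.95 ± 0.14 (adjusted p = 1.6e-05) in cKO cells.

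Nfkb1 (ENSMUSG00000028163), the source of p50, changed least among the subunits. Control libraries had 501, 484 and 615 CPM without stimulation and 634, 651, 597, 630.5 and 668 CPM with it, so replicate 3 of the non-stimulated group lay above the lowest stimulated library. The cKO libraries had 471, 544 and 528 CPM, then 603, 644, 687 and 650 CPM, without overlap. In log2 units the change was 0.25 ± 0.09 (adjusted p = 0.026 by edgeR) in control and 0.33 ± 0.09 (adjusted p = 0.0072) in cKO cells. The call in control cells was lost without non-stimulated control replicate 1 (adjusted p = 0.12), without replicate 2 (0.14) and without stimulated control replicate 5 (0.0507). On the scale of log2(TPM + 1), where limma was used, the change was 0.23 (adjusted p = 0.26) in control and 0.01 (adjusted p = 0.97) in cKO cells.

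The 3 NFAT genes did not move together. Nfatc2 (ENSMUSG00000027544), which encodes NFAT1, the NFAT protein most associated with resting T cells, fell. Its level was 342, 371 and 354 CPM in non-stimulated control libraries and 213, 197, 217, 203 and 199 CPM in stimulated ones. In cKO cells it was 347, 374 and 389 CPM, then 228, 195, 148 and 204 CPM. Stimulated libraries were all lower, and the lowest was stimulated cKO replicate 3. Log2 fold changes were -0.79 ± 0.10 (adjusted p = 5.2e-06 by edgeR) in control and -0.93 ± 0.11 (adjusted p = 1.5e-06) in cKO cells.

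Nfatc3 (ENSMUSG00000031902), which encodes NFAT4, fell by less. Control libraries had 257, 279 and 307 CPM without stimulation and 195, 201, 179, 222 and 223 CPM with it, and cKO libraries had 244, 260.2 and 268 CPM, then 183, 200.1, 206 and 217 CPM. The conditions did not overlap. Its log2 fold change was -0.46 ± 0.09 (adjusted p = 3.1e-04 by edgeR) in control and -0.35 ± 0.09 (adjusted p = 0.0040) in cKO cells. On the log2(TPM + 1) scale with limma it was -0.30 (adjusted p = 0.20) and -0.41 (adjusted p = 0.085), which did not pass.

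Nfatc1 (ENSMUSG00000033016) encodes NFAT2, of which a short isoform is known as inducible by NFAT. The gene-level values used here do not separate isoforms. Control libraries had 142, 163 and 144 CPM without stimulation and 150, 146, 165, 166 and 147 CPM with it. The cKO libraries had 139, 153 and 146 CPM, then 174, 155, 124 and 137 CPM. The conditions overlapped in both genotypes. The log2 fold change was 0.04 (95% interval -0.16 to 0.25) in control and 0.02 (-0.20 to 0.23) in cKO cells, with adjusted p of 0.73 and 0.90 by edgeR.

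Rcan1 (ENSMUSG00000022951) encodes a calcineurin inhibitor whose short form is a known product of NFAT activity from an internal promoter. The more internal of its 2 RefSeq starts is the one with the NFAT cores and AP-1 match shown above. It was the least abundant of the 10 genes. Its level was 3.91, 3.93 and 5.06 CPM in non-stimulated control libraries and 7.55, 5.41, 5.201, 5.97 and 7.45 CPM in stimulated ones. In cKO cells it was 4.17, 3.27 and 4.17 CPM, then 7.15, 7.50, 7.67 and 6.34 CPM. The groups lay close without overlapping in control cells and further apart in cKO cells. The log2 fold change was 0.55 ± 0.17 (adjusted p = 0.012 by edgeR) in control and 0.88 ± 0.18 (adjusted p = 4.4e-04) in cKO cells. Without non-stimulated control replicate 1 or 2 the control call was lost (adjusted p = 0.056 and 0.055), as it was with limma on log2(TPM + 1) (0.0616).

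**Figure D3:**
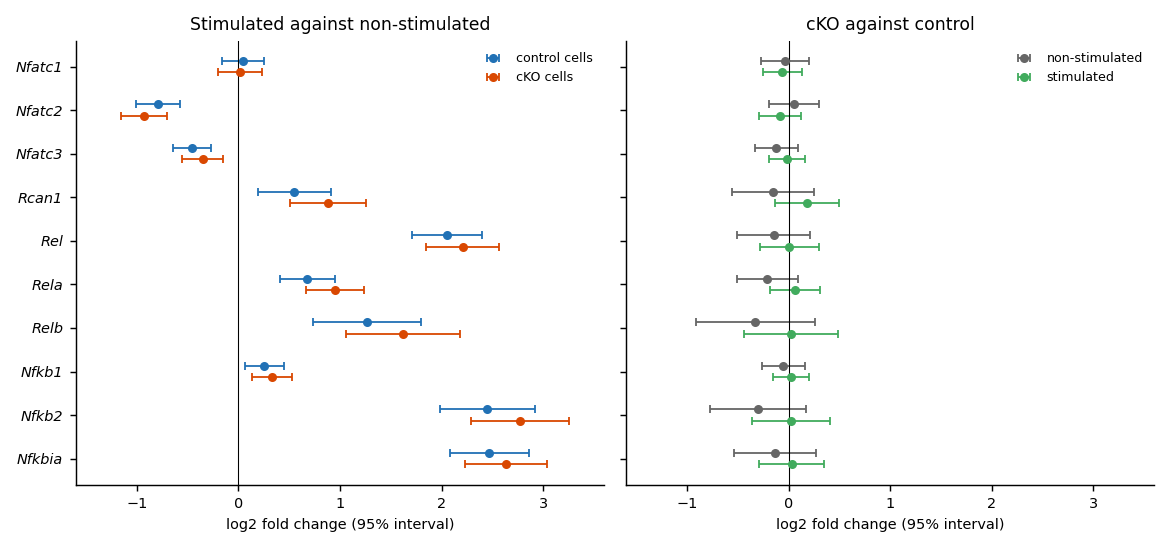
Log2 fold changes of the 10 genes with 95% intervals from edgeR. The left panel compares stimulated with non-stimulated libraries in control and cKO cells, and the right panel compares cKO with control cells in each condition on the same x axis. In the left panel the intervals of 9 genes exclude 0 in each genotype, and in the right panel every interval includes 0.

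Some libraries sat at the edge of their group for many of these genes. Non-stimulated control replicate 3 was the highest of its group for all 7 rising genes, and non-stimulated cKO replicate 2 for 6 of the 7. Replicate 2 was the lowest non-stimulated control library for 6 of the 7, and replicate 1 the lowest non-stimulated cKO library for 6 of the 7 and for both falling genes. Stimulated cKO replicate 3 was the highest of its group for 4 of them. Non-stimulated control replicate 3 and stimulated cKO replicate 3 were then both left out, a choice made after seeing the data. In that fit 9 of the 10 genes were again called in each genotype, 7 higher and 2 lower. The main fit called 50.6% of all tested genes in control and 53.8% in cKO cells. Without these 2 libraries the log2 fold change in control cells was 2.81 for Nfkbia, 2.76 for Nfkb2, 2.31 for Rel, 1.67 for Relb and -0.79 for Nfatc2. Summed TPM of 6 B cell markers, mostly Ighm, ran from 42.0 to 63.6 in non-stimulated and from 10.3 to 28.0 in stimulated libraries. The 6 macrophage and monocyte markers summed to 3.56 to 7.94 TPM and to 0.223 to 0.807 TPM. Endothelial markers, mostly Pecam1, summed to 50.9 to 66.4 TPM and to 12.7 to 28.1 TPM, with Cdh5 under 1 TPM in each library. Granulocyte and mast cell markers summed to 2.51 to 12.3 TPM and to 0.139 to 1.78 TPM. The dendritic cell markers were low, and their sum was higher in stimulated control libraries. It lay between 1.11 and 1.73 TPM without and between 1.81 and 2.7 TPM with stimulation there, and in cKO cells between 0.856 and 1.401 TPM and between 1.397 and 2.31 TPM, which overlapped. The sums of CD8 T and NK cell markers, mostly Gzma, overlapped, at 187 to 583 and 83.8 to 528 TPM. The part of these markers in the stimulation results was not tested.

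Levels of different genes were compared as TPM, which accounts for gene length. In non-stimulated control cells Nfkb1 was the most abundant at 171 ± 20.6 TPM (SD, n = 3), followed by Rela at 70.1 ± 6.22, Nfatc3 at 64.4 ± 5.85 and Nfatc2 at 53.7 ± 4.10 TPM. Nfatc1 (31.3 ± 3.90 TPM), Nfkbia (28.9 ± 9.67) and Nfkb2 (22.8 ± 6.70) came next. Relb (8.10 ± 3.08), Rel (6.60 ± 1.58) and Rcan1 (1.98 ± 0.145) were lowest. Neighbours in this order overlapped between libraries except Nfkb1 and Rela, Nfatc2 and Nfatc1, Nfkb2 and Relb, and Rel and Rcan1. After stimulation of control cells the order began with Nfkb1 (200.3 ± 22.6 TPM, n = 5), Nfkbia (179 ± 12.5), Nfkb2 (143 ± 26.0) and Rela (137 ± 21.9), each overlapping the next. Nfatc3 (52.9 ± 10.1), Nfatc2 (36.2 ± 3.48), Nfatc1 (34.7 ± 3.84), Rel (30.8 ± 7.71) and Relb (21.4 ± 2.34) followed, again each overlapping the next, with Rcan1 (3.00 ± 0.659) apart at the bottom. The order by mean TPM was the same in cKO cells in each condition.

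The composition of the NF-kappaB subunit RNA differed between conditions in the same way in both genotypes. Nfkb1 made up 61.5 ± 1.45% of the summed TPM of the 5 subunit genes in non-stimulated control cells and 37.7 ± 1.46% in stimulated ones. In cKO cells its share was 65.0 ± 4.06% and 37.2 ± 2.02%. Nfkb2 went from 8.08 ± 1.22% to 26.8 ± 3.76% in control and from 6.98 ± 1.42% to 27.0 ± 2.15% in cKO cells. Rel went from 2.35 ± 0.233% to 5.72 ± 0.856% in control and from 2.29 ± 0.138% to 5.66 ± 0.433% in cKO cells. The share of Rela overlapped between conditions, at 25.2 ± 1.42% and 25.8 ± 2.49% in control cells. Relb went from 2.85 ± 0.685% to 4.03 ± 0.356% in control cells, with overlap, and from 2.56 ± 0.785% to 4.04 ± 0.469% in cKO cells, without it. In CPM, which are not scaled by gene length, Rel held 6.93% and 15.4% in control cells and Rela 12.0% and 10.2%, and there the share of Rela was lower after stimulation without overlap in control cells and with overlap in cKO cells. The summed TPM of the 5 subunits was 279 ± 37.5 without and 532 ± 63.2 with stimulation in control cells, and 292 ± 34.4 and 515 ± 74.6 in cKO cells. Relative to that sum, Nfkbia was at a ratio of 0.102 ± 0.0218 without and 0.338 ± 0.0221 with stimulation in control cells. The ratios in cKO cells were 0.102 ± 0.0112 and 0.339 ± 0.0336. The ratio of Nfkb2 to Nfkb1 TPM was 0.132 ± 0.0224 and 0.714 ± 0.121 in control cells. Apart from the share of Rela and, in control cells, that of Relb, these TPM shares and ratios did not overlap between the conditions in either genotype.

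Among the 3 NFAT genes, Nfatc1 made up 20.9 ± 1.23% of their summed TPM in non-stimulated and 28.2 ± 1.54% in stimulated control cells, and 20.8 ± 0.597% and 28.0 ± 3.19% in cKO cells. Nfatc2 went from 36.0 ± 1.21% to 29.4 ± 1.54% in control and from 39.0 ± 0.574% to 28.3 ± 2.76% in cKO cells. Nfatc3 held 43.1 ± 2.18% and 42.5 ± 2.98% in control cells, which overlapped. The ratio of Nfatc2 to Nfatc1 TPM was 1.72 ± 0.0782 without and 1.04 ± 0.0272 with stimulation in control cells, and 1.87 ± 0.0754 and 1.01 ± 0.111 in cKO cells. After stimulation the TPM of the 2 genes was close to equal, although the level of Nfatc1 itself did not pass the test.

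**Figure D4:**
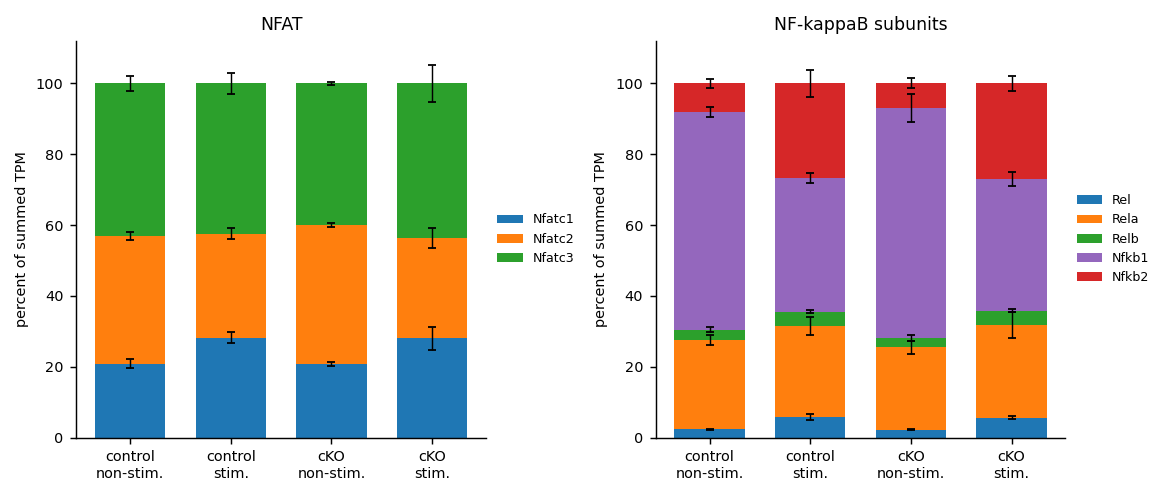
Share of each gene in the summed TPM of the 3 NFAT genes (left) and of the 5 NF-kappaB subunit genes (right), in percent. Bars are group means and each error bar is the SD of the share of the gene it tops. Nfkb1 stands at 61.5% and 37.7% without and with stimulation of control cells, and Nfkb2 goes from 8.08% to 26.8%.

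None of the 10 genes passed the test between genotypes. With edgeR 0 of 10 were called for cKO against control without stimulation, 0 after stimulation and 0 for the interaction of genotype and stimulation. The share called among all tested genes was 0%, 0.0064% (1 gene, Asb2) and 0%. At an unadjusted p under 0.05 the count was again 0 of 10 in each, against 2.57%, 1.81% and 3.87% of all tested genes. DESeq2 and limma on log2(TPM + 1) called 0 of 10 in each as well. cKO and control libraries overlapped for all 10 genes in both conditions, where 7.86% and 0.659% of all tested genes did not overlap. These comparisons share libraries with the stimulation comparisons. Asb2, the targeted gene, was itself not called without stimulation (log2 fold change -0.94 ± 0.21) or for the interaction (-0.88 ± 0.27). The test thus missed the targeted gene without stimulation, where its unadjusted p was 3.3e-04 by edgeR and the genotypes did not overlap. For the interaction no true difference of Asb2 is known beforehand, so no miss can be stated.

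The intervals show what sizes the data allow. After stimulation the narrowest was that of Nfkb1, at 0.02 with a 95% interval from -0.15 to 0.20 in log2 units. Nfatc3 (-0.02, from -0.19 to 0.16) and Nfatc1 (-0.06, from -0.26 to 0.13) were about as narrow. Nfatc2 was at -0.09 (from -0.29 to 0.12), Rel at 0.01 (from -0.28 to 0.30), Rela at 0.06 (from -0.18 to 0.31) and Nfkbia at 0.03 (from -0.29 to 0.35). The interval of Rcan1 (0.18, from -0.13 to 0.50) was about as wide as that of Nfkbia, and the widest were those of Relb (0.02, from -0.44 to 0.48) and Nfkb2 (0.02, from -0.36 to 0.40). Without stimulation, 9 of the 10 estimates were below 0, the exception being Nfatc2, but those of Nfatc1, Nfatc3, Nfkb1, Nfkbia and Rel were above 0 on the log2(TPM + 1) scale, where the median of all genes was 0.13. None passed the test, and the median of all tested genes in the count model was -0.0047. Relb (-0.33, from -0.92 to 0.26) and Nfkb2 (-0.30, from -0.77 to 0.18) were farthest from 0. Without non-stimulated control replicate 3, which held the highest value of both, they were at 0.065 and 0.0077, and without non-stimulated cKO replicate 2 at -0.74 and -0.56. Leaving out that control library also put Rel (0.10), Nfkbia (0.19) and Nfkb1 (0.063) above 0, while Nfatc1, Nfatc3, Rcan1 and Rela stayed below. For the interaction the estimates ran from -0.14 for Nfatc2 to 0.35 for Relb (from -0.40 to 1.097). Rcan1 was at 0.33 (from -0.18 to 0.85), Nfkb2 at 0.32 (from -0.29 to 0.93) and Rela at 0.27 (from -0.12 to 0.66).

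Other genes of both pathways were described with 5 lists of 58 genes, 54 of them tested. Stimulation raised 19 and lowered 18 of them in control cells, and raised 19 and lowered 15 in cKO cells. That is 37 and 34 of 54, where 50.6% and 53.8% of all tested genes were called. Limma on log2(TPM + 1) tested 52 of these genes and called 17 higher and 8 lower in control cells, and 17 higher and 13 lower in cKO cells. Among all 14716 genes in that fit, limma called 3452 higher and 1776 lower in control cells, and 2350 higher and 2950 lower in cKO cells. For cKO against control without stimulation, after stimulation and for the interaction, edgeR and DESeq2 called 0 of 54 and limma on log2(TPM + 1) 0 of 52. At an unadjusted p under 0.05 edgeR had 1, 0 and 2 of the 54, against 2.57%, 1.81% and 3.87% of all tested genes. The 2 were Ppp3r1 and Itpr2, a count near the general share.

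Genes of calcium entry and calcineurin were mostly called lower after stimulation by edgeR, and less often by limma. Of 16 tested, 11 fell and 2 rose in control cells, and 10 fell and 2 rose in cKO cells, with median log2 fold changes of -0.39 and -0.45. Over all tested genes the shares were 25.2% lower and 25.4% higher in control cells, and 27.1% and 26.7% in cKO cells. With limma on log2(TPM + 1) 4 fell and 2 rose in control cells, and 8 fell and 2 rose in cKO cells. Of all 14716 genes in that fit, 1776 fell and 3452 rose in control cells, and 2950 fell and 2350 rose in cKO cells. The store-operated channel genes Orai1 and Orai2 moved in opposite directions. Orai2 fell from 63.6 ± 4.89 to 26.1 ± 2.69 CPM in control cells (log2 fold change -1.29 ± 0.10, adjusted p = 1.2e-08 by edgeR), and Orai1 rose from 16.4 ± 2.37 to 43.6 ± 3.09 CPM (1.41 ± 0.16, adjusted p = 1.1e-06). The inositol trisphosphate receptor genes Itpr3 (-0.74 ± 0.08) and Itpr2 (-0.53 ± 0.09) fell. In cKO cells these 4 genes changed by -1.47, 1.50, -0.79 and -0.85. Among 11 tested inhibitors of calcineurin and kinases that export NFAT from the nucleus, 2 rose and 2 fell in control cells, and 2 rose and 1 fell in cKO cells, fewer in proportion than the 50.6% and 53.8% of all tested genes. The NFAT kinase gene Dyrk2 fell (-0.99 ± 0.08 in control and -0.99 ± 0.08 in cKO cells), and the casein kinase gene Csnk1e rose (0.73 ± 0.08 and 0.87 ± 0.09). Akap5, an anchor of calcineurin, rose in control cells (1.03 ± 0.34, adjusted p = 0.017 by edgeR) from a level under 1 CPM and did not pass in cKO cells (0.18 ± 0.36). The difference between the genotypes did not pass either (adjusted p = 0.997 by edgeR). Nfat5, the calcium-independent relative of NFAT known from the response to osmotic stress, rose from 184 ± 7.25 to 795 ± 121 CPM in control cells (2.11 ± 0.13, adjusted p = 1.3e-09 by edgeR). In cKO cells its log2 fold change was 2.02 ± 0.14. Nfatc2ip, which encodes a protein that interacts with NFAT, did not pass (-0.04 ± 0.09 and 0.11 ± 0.10).

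Other IkB genes and genes known as brakes of NF-kappaB rose more often than they fell. Of 14 other IkB proteins and brakes, 8 rose and 4 fell in control cells, and 8 rose and 3 fell in cKO cells, with medians of 0.75 and 0.79. All tested genes had 25.4% higher and 25.2% lower in control cells and 26.7% and 27.1% in cKO cells, so that the 4 and 3 falls were near the general share. Nfkbid, a nuclear IkB gene, rose from 5.48 ± 0.517 to 33.3 ± 2.35 CPM in control cells (2.60 ± 0.16, adjusted p = 6.2e-10 by edgeR). The ubiquitin-editing enzyme gene Tnfaip3 (A20) rose from 81.7 ± 16.2 to 321 ± 19.4 CPM (1.97 ± 0.14, adjusted p = 7.0e-09). The opposite direction was seen in Nlrc3, a NOD-like receptor gene described as a negative regulator in T cells, which fell from 143 ± 41.3 to 22.1 ± 3.27 CPM (-2.70 ± 0.17, adjusted p = 4.6e-09). The changes in cKO cells were 2.48, 2.15 and -3.14.

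In the non-canonical arm, to which Nfkb2 and Relb belong, 6 of 11 tested genes rose and 1 fell in each genotype, against 25.4% higher and 25.2% lower of all tested genes in control cells and 26.7% and 27.1% in cKO cells. Limma on log2(TPM + 1) called 5 of 10 higher in each genotype, and 0 lower in control and 1 lower in cKO cells. Among all 14716 genes in that fit it called 3452 higher and 1776 lower in control cells, and 2350 higher and 2950 lower in cKO cells. The adaptor gene Traf1 rose from 78.9 ± 13.3 to 270 ± 17.8 CPM in control cells (1.77 ± 0.13, adjusted p = 9.5e-09 by edgeR). Tnfrsf4, which encodes the costimulatory receptor OX40, rose from 198 ± 69.4 to 537 ± 39.9 CPM (1.44 ± 0.25). Smaller rises were found in the ubiquitin ligase gene Birc3 (0.82 ± 0.13) and in Tnfrsf18, which encodes GITR (0.61 ± 0.17). In cKO cells these 4 genes changed by 1.78, 1.80, 0.95 and 0.91. The kinase gene Map3k14 of the same list was lower with stimulation. It was at 63.0 ± 1.78 and 50.1 ± 2.20 CPM without and with stimulation in control cells, and at 63.9 ± 4.19 and 47.6 ± 1.81 CPM in cKO cells.

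**Figure D5:**
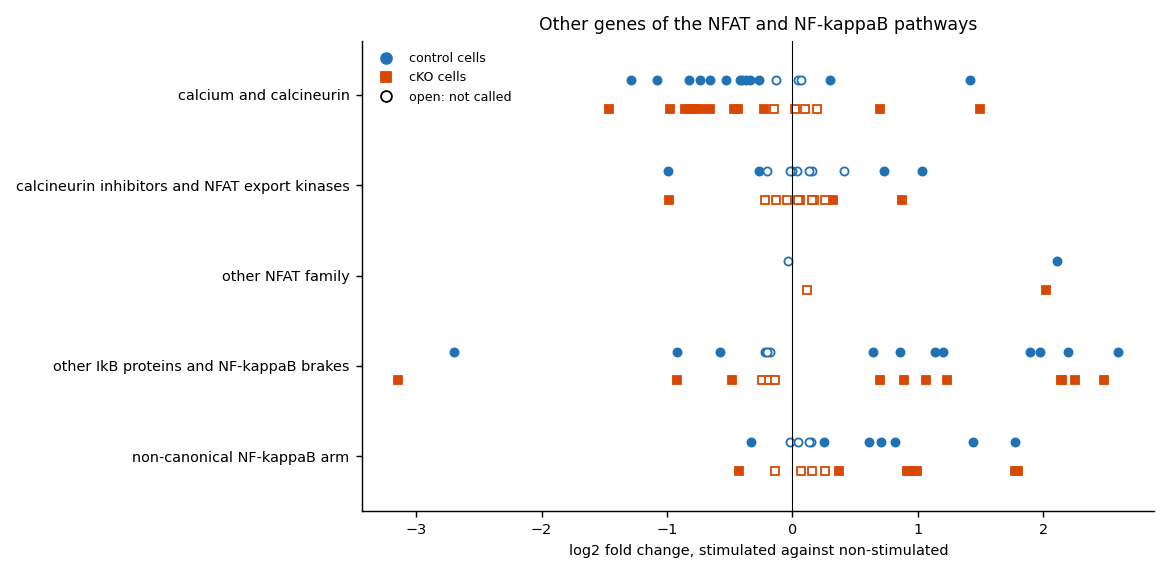
Log2 fold changes with stimulation of the tested genes of 5 pathway lists. Each point is 1 gene, circles are control cells and squares cKO cells, and open symbols did not pass the test. Genes of calcium and calcineurin lie mostly below 0, and the other IkB proteins and brakes mostly above 0, with Nlrc3 at -2.70 and -3.14.

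Across the 15 libraries, patterns were compared by the root mean square difference of log2 CPM after each gene was centred on its mean, among 8436 genes. Nfkb2 and Nfkbia were each other's nearest gene, at 0.17 log2 units. Bhlhe40 and Ncs1 followed for both, at 0.19 and 0.19 from Nfkbia and 0.20 and 0.18 from Nfkb2. Closest to Rel were Itgav (0.14) and Pdcd1lg2 (0.15), and closest to Relb were Csrnp1 (0.12) and Pycr1 (0.15). Rela was nearest to Srpr and Slc39a7 (both 0.11), and Rcan1 to Ubxn2a (0.15) and Srpr (0.16). Nfkb1 was nearest to Cnot2 and Mon2 (both 0.05), Nfatc2 to Agap2 (0.08) and Rasal3 (0.09), and Nfatc3 to Marchf6 (0.05) and Kdm2a (0.06). The libraries form separate stimulated and non-stimulated clusters, so these distances mostly compare the size of the stimulation change.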

How the data were processed

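RNA of 15 libraries was measured by sequencing after a stranded total RNA preparation with depletion of ribosomal RNA, per the labels' protocols. Estimated counts were deposited for each gene, unscaled and not all whole, with the authors' TPM values. The tools Salmon 1.10.1, STAR 2.7.9a and cutadapt 3.4 and the build GRCm39 are listed in the submitters' processing notes. The role of each tool and the annotation release are not given in the sources used here.

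With R 4.3.3, counts were rounded and filtered (filterByExpr), scaled with TMM factors and fitted with edgeR 4.0.16 (quasi-likelihood, robust, 1 mean per group, all 15 libraries). Tests were two-sided, with Benjamini-Hochberg adjustment over 15619 genes. SE and 95% intervals come from that model, and CPM use the scaled library sizes. The 5 comparisons were stimulation in each genotype, genotype in each condition and their interaction. The code was tested on simulated data. Alternatives were DESeq2 1.42.0, limma 3.58.1 on log2 of TPM, other scaling, filters and samples, and a replicate block. Same-numbered libraries deviated with correlations from -0.269 to 0.379, which do not settle whether they are pairs. The main fit did not treat them as pairs.

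Other genes named are, from each pathway list, the 3 with the smallest p for stimulation in control cells and the 1 with the smallest p for cKO against control after stimulation, and the 2 genes nearest to each changed gene. The 10 genes, the lists and the motifs were chosen with earlier results of these data known. Ppp3r1, Map3k14 and the genes of cell type markers were named after their values were seen. The results of 1 pathway list and 1 marker gene are not reported here.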

Additional observations from a re-analysis of the deposited data

Results flagged for a closer look

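Rela in stimulated control replicate 5 was at 162 CPM, where the other 4 libraries of that group lay between 142 and 147 CPM. The gap to the nearest library took 0.768 of the range of the group, above the critical value of 0.71 for 5 samples. Such gaps were tested in 20 groups of 4 or 5 libraries, and chance alone passes about 1 group in 20. Without that library the call of Rela in control cells was kept.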

How the results depend on the processing

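Of the 9 calls with stimulation in each genotype, none changed direction under the alternatives run. DESeq2, relative log expression size factors, other filters on counts and fitting only the groups compared called 9 in each genotype. Of all genes in control and cKO cells, DESeq2 called 8000 and 8518 of 15619, and the size factors 7880 and 8400. Without a filter 7693 and 8272 of 28064 genes were called, and with at least 1 CPM in 3 libraries 7555 and 8014 of 14092. The groups compared alone gave 7564 of 14980 and 7714 of 14890. Over libraries left out in turn the count was 7 to 9 in control and 9 in cKO cells, and Rcan1 and Nfkb1 in control cells were the calls lost. The main fit called 7897 and 8398 of 15619 genes. With limma on log2(TPM + 1) or log2(TPM + 0.1) there were 6 calls in control and 7 in cKO cells, and with no filter on TPM 5 in control cells, where Nfatc2 was lost at an adjusted p of 0.0544. With a pseudocount of 1 the median of all genes was 0.13 for stimulation in control and -0.05 in cKO cells, 0.13 and -0.06 for genotype without and with stimulation and -0.18 for the interaction, against -0.01 to 0.02 in the count model. It called 5228 of 14716 genes in control cells, 3452 higher and 1776 lower, against 3961 higher and 3936 lower among the 7897 of the count model. In cKO cells it called 5300 genes, 2350 higher and 2950 lower, against 8398. With a pseudocount of 0.1 the counts were 5201 and 5272. With a pseudocount of 1 and no filter on TPM they were 5228 and 5674 of 28105 genes. Shares in CPM instead of TPM moved by more than 1 SD for 25 of 32 values, with Rel and Rela in control cells the examples given beside the shares. The cause of these differences was not tested. DESeq2 called 4 genes for cKO against control without stimulation, 5 after it and 2 for the interaction, none of them among the 10.

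Labels do not say whether replicate numbers mark pairs, and the correlations do not settle it. Replicate 1 correlated best with its own number for stimulation in control cells (0.294) and for genotype without (0.379) and with stimulation (0.291). For stimulation in cKO cells, replicates 2 (0.129) and 3 (0.161) did so. The other same-numbered libraries correlated better with another number, and their own correlations ran from -0.269 to 0.0695. With the replicate number as a block, 8 members were called in control and 9 in cKO cells (Nfkb1 in control at an adjusted p of 0.0579). With the block within genotype the counts were 7 and 9 (Nfkb1 0.114 and Rcan1 0.0823). Of all 15619 genes the block called 7411 and 8329, and the block within genotype 7006 and 7700. The block gave 0.017 for Nfatc3 in cKO against control after stimulation, and the block within genotype 0.0033 for Nfatc1 in the interaction, both with the sign turned.

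Every other turn of sign was in values that did not pass the test. On log2(TPM + 1), with or without the filter, and log2(TPM + 0.1), the values were as follows. Stimulation in cKO cells was -0.11 and -0.11 for Nfatc1. cKO against control without stimulation was 0.12 and 0.12 for Nfatc1, 0.024 and 0.024 for Nfatc3, 0.15 and 0.15 for Nfkb1, 0.078 and 0.082 for Nfkbia, and 0.028 and 0.034 for Rel. After stimulation it was -0.070 and -0.071 for Nfkb1, -0.029 and -0.029 for Nfkb2, and -0.049 and -0.049 for Nfkbia. It was -0.053 and -0.054 for Rel, -0.037 and -0.037 for Rela, and -0.048 and -0.051 for Relb. The interaction was -0.12 and -0.12 for Nfatc3, -0.22 and -0.22 for Nfkb1, -0.13 and -0.13 for Nfkbia, and -0.081 and -0.088 for Rel. Leaving out 1 library, or non-stimulated control replicate 3 and stimulated cKO replicate 3 together, gave ranges across 0. Stimulation in cKO cells ran from -0.073 to 0.10 for Nfatc1. Without stimulation cKO against control ran from -0.072 to 0.030 for Nfatc1, -0.12 to 0.063 for Nfkb1 and -0.56 to 0.0077 for Nfkb2. It ran from -0.35 to 0.19 for Nfkbia, -0.26 to 0.10 for Rel and -0.74 to 0.065 for Relb. After stimulation it ran from -0.15 to 0.0066 for Nfatc1, -0.17 to 0.019 for Nfatc2, -0.056 to 0.028 for Nfatc3 and -0.014 to 0.054 for Nfkb1. For Nfkb2 it was -0.066 to 0.086, for Nfkbia -0.026 to 0.10, for Rel -0.057 to 0.086, for Rela -0.053 to 0.16 and for Relb -0.027 to 0.080. The interaction ran from -0.12 to 0.078 for Nfatc1, -0.070 to 0.14 for Nfkb1, -0.17 to 0.38 for Nfkbia, -0.12 to 0.27 for Rel and -0.041 to 0.76 for Relb.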
